A study of Mus musculus with 3 samples.

Results

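The inner root sheath keratins are the intermediate filament proteins of the sheath that moulds the growing hair. They were followed here as 8 genes chosen by name, Krt25, Krt26, Krt27 and Krt28 of type I and Krt71, Krt72-ps, Krt73 and Krt74 of type II. All 8 were found among the 21881 gene rows of each age. RNA of whole skin from FVB mice, an inbred albino strain, was sequenced in embryos at E18.5, shortly before birth, in pups on day 3 after it (P3) and in adults at 10 weeks. These ages are also called embryo, pup and adult below. The deposited column headers call all 3 groups wild type (WT), and no treatment is named. The series design states 2 biological replicates per age, whereas each table gives a gene only 1 number, which its header calls an average. No spread between animals could be computed, no test was possible, and every difference below lacks a replicate check.

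Values are FPKM, fragments scaled to transcript length and library size, so that levels of different genes can be compared per length. The number of reads was not known here, and the precision of low values is unknown. A gene is called higher or lower when log2(FPKM + 1) differs by at least 1 between ages, a 2-fold difference on that scale, which understates the change of low genes. Genes under 1 FPKM throughout were not compared.

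The hair follicle is built of concentric layers, with the hair shaft in the centre, the inner root sheath around it and the outer root sheath outside. The inner root sheath consists of the cuticle, Huxley's layer and Henle's layer, and hardens before the hair does. It is made by the bulb of the growing follicle (anagen) and is lost when the follicle regresses and rests (telogen). Keratin filaments assemble from equal parts of a type I (acidic) and a type II (basic) chain, and the sheath uses chains that interfollicular epidermis does not. In human follicles K25, K27, K28 and K71 occur in all layers of the sheath, K26, K72 and K73 in its cuticle and K74 in Huxley's layer. Variants of human KRT25, KRT71 and KRT74 cause woolly hair, and mutations of mouse Krt71 give the wavy coat called caracul.

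The labelled tissue was matched by its markers. Of 6 keratinocyte markers, 4 had a value at every age, and these summed to 2086, 5337 and 1585 FPKM at E18.5, P3 and 10 weeks. The estimates of Krt1 and Krt10 failed at P3. Failed estimates, values of 0 with a failure mark, numbered 3 in the embryo, 7 in the pup and 0 in the adult and were left out. All 8 inner root sheath keratins carried the mark OK at every age. The averaged values of the 3 ages also differed in sex-linked genes, with Xist at 0.0433, 64.6 and 73.0 FPKM and the Y-linked Eif2s3y at 42.1, 0.0838 and 0 FPKM. The E18.5 sample thus differs from the others in these genes as well as in age, and the part of sex in the results was not tested.

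The type I genes lie side by side on chromosome 11 (mm9, 99177158 to 99236217, 59.1 kb), in the order Krt25, Krt26, Krt27, Krt28. Those of type II lie on chromosome 15 (mm9, 101564380 to 101632763, 68.4 kb), in the order Krt71, Krt74, Krt72-ps, Krt73. Krt72-ps is named as a pseudogene in the tables, whereas RefSeq lists it on GRCm38.p6 as the protein-coding gene Krt72. Krt74, by contrast, is a transcribed pseudogene in that RefSeq annotation, although its human counterpart codes for a keratin.

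The 250 bases before the RefSeq start of 5 of the genes are shown. Whether these sequences have a part in the course across the ages was not tested. Krt25 and Krt71 were chosen as the most abundant gene of each type, Krt28 and Krt73 as those with the smallest ratios of FPKM between P3 and E18.5, and Krt72-ps as the gene with the largest. All are from GRCm38.p6, minus strand, and are written in the direction of transcription. Capitals mark TATAAA, the letters of a TATA box, in the direction of transcription, and AATTA, core letters of many homeodomain sites, on either strand. Overlapping matches of AATTA on opposite strands form the palindrome TAATTA.
Krt25 (chr11:99322952-99323201): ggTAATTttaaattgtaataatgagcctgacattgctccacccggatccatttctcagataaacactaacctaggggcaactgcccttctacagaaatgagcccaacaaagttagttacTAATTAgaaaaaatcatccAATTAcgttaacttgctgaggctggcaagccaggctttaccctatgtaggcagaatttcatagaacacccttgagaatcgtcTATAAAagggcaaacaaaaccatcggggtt
Krt28 (chr11:99374904-99375153): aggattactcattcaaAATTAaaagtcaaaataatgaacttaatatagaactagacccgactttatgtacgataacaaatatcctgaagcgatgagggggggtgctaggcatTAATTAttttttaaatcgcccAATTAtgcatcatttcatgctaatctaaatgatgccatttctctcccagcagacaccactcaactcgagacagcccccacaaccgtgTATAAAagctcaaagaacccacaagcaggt
Krt71 (chr15:101743098-101743347): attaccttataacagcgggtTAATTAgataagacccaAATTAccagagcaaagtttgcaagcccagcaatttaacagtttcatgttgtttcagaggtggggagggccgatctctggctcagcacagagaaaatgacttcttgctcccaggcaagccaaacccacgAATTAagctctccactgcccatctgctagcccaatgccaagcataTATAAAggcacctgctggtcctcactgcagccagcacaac
Krt73 (chr15:101802361-101802610): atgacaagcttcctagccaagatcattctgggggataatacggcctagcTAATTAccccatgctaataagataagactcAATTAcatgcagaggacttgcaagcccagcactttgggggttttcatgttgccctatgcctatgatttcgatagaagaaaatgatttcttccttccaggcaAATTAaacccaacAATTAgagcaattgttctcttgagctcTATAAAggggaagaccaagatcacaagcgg
Krt72-ps, RefSeq Krt72 (chr15:101786521-101786770): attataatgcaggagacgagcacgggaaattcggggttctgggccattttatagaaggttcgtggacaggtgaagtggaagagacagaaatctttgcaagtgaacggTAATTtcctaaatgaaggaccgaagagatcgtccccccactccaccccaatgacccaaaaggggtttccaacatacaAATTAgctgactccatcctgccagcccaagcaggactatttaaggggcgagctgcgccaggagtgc
RefSeq promoters were matched for 7 of the 8 genes, all but Krt74. TATAAA in the direction of transcription was found in 6 of these 7, against 7.59% of 32851 promoters of the same length. In Krt25, Krt26, Krt28 and Krt73 its first base lay 30 bases before the start, in Krt71 40 and in Krt27 15. Krt72-ps held these letters only on the opposite strand.

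AATTA was present on either strand in all 7, and in 25.0% of all promoters. It occurred more than once in 6 of the 7, with Krt27 holding 1 match, and in 9.43% of all promoters. These windows had a GC content of 38.8% to 50%, against a median of 52.4% over all promoters, and the shares were not adjusted for base composition. GATAA, core letters of GATA factor sites, was found on either strand in 5 of 7 and in 22.6% of all promoters. CTTTG, core letters of LEF/TCF sites, was found in 5 of 7 and in 48.6% of all. In Krt27 a match of GATAA overlaps the match of AATTA. The 4 motifs were chosen after the sequences had been looked at, and a match is a description of letters, not a binding site. Krt71 and Krt73 shared a run of 14 bases, TTGCAAGCCCAGCA, starting 196 and 154 bases before the start and present in 2 of the 32851 promoters.

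At P3 all 8 genes were at their highest of the 3 ages. Krt71, the most abundant member at each age, stood at 65.8 FPKM in the embryo, 1632 in the pup and 91.0 in the adult. Its P3 level was 24.8 times that at E18.5 and 17.9 times that at 10 weeks, with differences of 4.61 and -4.15 in log2(FPKM + 1). Among 45 keratin genes with a P3 value, Krt71 was the third highest, after Krt5 and Krt14 of the basal layer. It was 58th among genes with a value at P3, where 7 estimates, those of Krt1 and Krt10 among them, had failed. At E18.5 and 10 weeks it was 1185th and 1035th.

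Krt25, the leading type I chain, stood at 54.2, 1103 and 68.6 FPKM at the 3 ages. This is 20.3 times as much at P3 as at E18.5 (4.32 in log2(FPKM + 1)) and 16.1 times as much as at 10 weeks (a difference of -3.99 from P3). Krt27 followed with 34.1, 754 and 37.4 FPKM and differences of 4.43 and -4.30. Both were thus near the same level in the embryo and the adult, with differences between these ages of 0.33 for Krt25 and 0.13 for Krt27. Krt25 and Krt27 share the most sequence with other genes. Of the 50-base stretches of their transcripts, 10.9% and 11.1% also occur in transcripts of Krt28, of each other or, for Krt25, of Krt15. Reads from such stretches could have been divided between them.

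Krt28 and Krt73, 1 of each type, had similar differences. Krt28 stood at 27.5, 287 and 14.3 FPKM, differences of 3.33 up to P3 and -4.23 after it. Krt73 stood at 29.1, 348 and 18.8 FPKM, with differences of 3.54 and -4.14. They had P3 levels 10.4 and 12.0 times those at E18.5, the smallest of the 8 ratios of FPKM. At 10 weeks both stood below their embryonic level, by -0.90 for Krt28 and -0.60 for Krt73, neither of which reached 2-fold. Krt28 is called lower under median-of-ratios (-1.15) and upper-quartile (-1.18) scaling. The embryonic level of Krt73 was close to that of Krt28 and Krt27, whereas the adult values were 37.4 FPKM for Krt27 and less than 20 for the others.

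Krt26 and Krt72-ps were low before birth. Krt26 stood at 2.02 FPKM in the embryo, 77.3 in the pup and 3.36 in the adult, differences of 4.70 and -4.17. Krt72-ps went from 1.84 to 201 and then 5.16 FPKM, with differences of 6.15 and -5.03, the largest of the 8 in both comparisons. Its P3 level was 109 times the embryonic and 38.9 times the adult one. Only 22 genes of 14653 had a P3 minus E18.5 difference as large as or larger than that of Krt72-ps, itself included. It was the only one of the 8 called different between E18.5 and 10 weeks, with 1.12. That call is lost with a pseudocount of 5 (0.57), under median-of-ratios scaling (0.91) and under upper-quartile scaling (0.90). The row named a pseudogene therefore held, at P3, more FPKM than Krt26 and about as much as Krt77 (224 FPKM), a suprabasal keratin of the same cluster.

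Krt74, the transcribed pseudogene, was listed at 0.307, 4.06 and 0.293 FPKM. It was higher at P3 as well, by 1.95, and lower at 10 weeks, by -1.97, but both calls are lost with a pseudocount of 5 (0.77 and -0.78). At P3 Krt71 had 402 times its FPKM. The order of the levels was Krt71, Krt25, Krt27, Krt73, Krt28, Krt72-ps, Krt26 and Krt74 in the pup and the adult, and the same in the embryo but for Krt26 above Krt72-ps. Which neighbours in this order differ beyond the spread of animals cannot be said from 1 value per age. Of the 50-base stretches of the Krt74 transcript, 2.60% also occur in Krt71 or Krt73. Whether reads of these abundant neighbours add to so low a value was not tested.

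**Figure D1:**
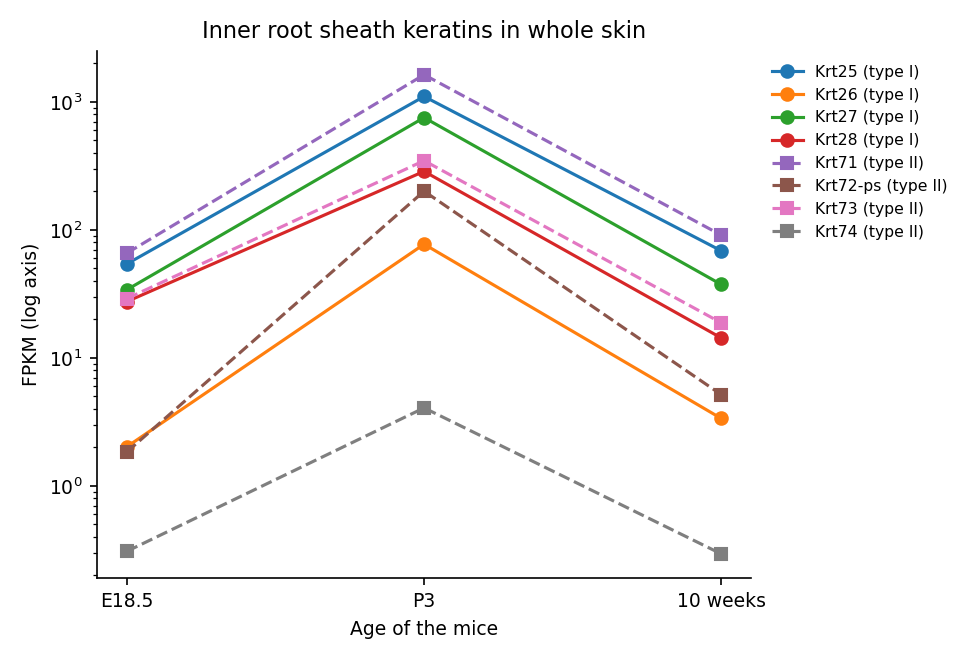
FPKM of the 8 inner root sheath keratins (log axis) at E18.5, P3 and 10 weeks, 1 averaged value per gene and age without error bars, with circles and solid lines for type I and squares and broken lines for type II. Every line has its top at P3, Krt71 being highest (1632 FPKM) and Krt74 lowest (4.06 FPKM), and the lines of Krt28 and Krt73 end below where they begin.

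The 8 genes were then read against all genes compared. From E18.5 to P3, 8 of 8 members were called higher and 0 lower, where 9.56% of 14653 genes were higher and 9.42% lower. Their median difference was 4.37 (range 1.95 to 6.15), against 0.03 over all genes. From P3 to 10 weeks, 0 of 8 were called higher and 8 of 8 lower, where 19.8% of 14655 genes were higher and 9.98% lower. The median difference was -4.16 (range -5.03 to -1.97), against 0.14 over all genes. A gene was highest at P3, 2-fold above both other ages, in 8 of 8 members and in 5.35% of all genes. The P3 value enters both comparisons with opposite sign, so an error in it would appear in both.

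From E18.5 to 10 weeks 1 member was called higher and 0 lower, where 16.1% and 6.92% of 14659 genes were. The median difference of the 8 was 0.23, close to that of all genes (0.22). Apart from Krt72-ps the members lay between -0.90 and 0.53. The summed FPKM of the 8 genes was 215 in the embryo, 4406 in the pup and 239 in the adult. That is 0.0362%, 0.729% and 0.0365% of the FPKM of all genes with a value at that age, which at P3 leaves out Krt1 and Krt10. In whole skin, fewer cells of a type and less RNA per cell cannot be told apart.

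**Figure D2:**
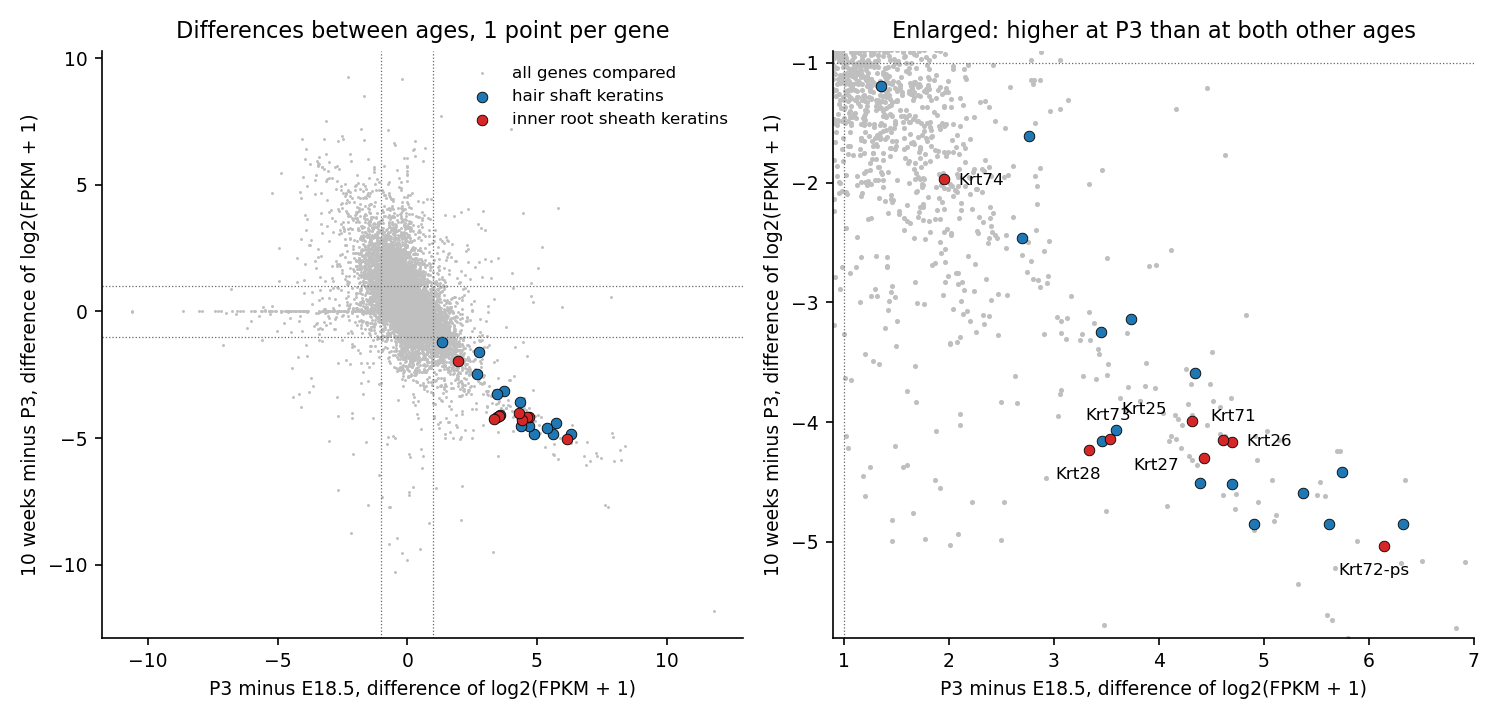
Difference of log2(FPKM + 1) from E18.5 to P3 (horizontal) against that from P3 to 10 weeks (vertical), 1 point per gene, with dotted lines at the 2-fold rule, inner root sheath keratins in red, hair shaft keratins in blue and the lower right part enlarged. The axes share the P3 value; all 8 red points lie beyond both thresholds, from Krt74 (1.95 and -1.97) to Krt72-ps (6.15 and -5.03).

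In summed transcript FPKM, type I and type II genes were close to balance at each age, while protein chains were not measured. Type I genes summed to 118 FPKM in the embryo, 2221 in the pup and 124 in the adult. The type II genes summed to 97.0, 2184 and 115 FPKM. The ratio of type I to type II was thus 1.21, 1.02 and 1.07, while each sum differed about as much between ages as the total, by 18.8 and 22.5 times from E18.5 to P3. Without Krt72-ps the ratio was 1.24, 1.12 and 1.12.

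Within this balance the make-up differed between the embryo and the later ages. The share of Krt28 in the sum of the 8 was 12.8% in the embryo but 6.51% in the pup and 5.99% in the adult. Krt73 likewise held 13.5%, then 7.89% and 7.86%. Relative to the main chain of its own type, Krt28 stood at 0.507, 0.26 and 0.208 of Krt25, and Krt73 at 0.441, 0.213 and 0.206 of Krt71. Krt71 rather than these genes took a larger share after birth, with 30.6%, 37.0% and 38.1%. Krt25 held 25.2%, 25.0% and 28.7%, and Krt27 15.9%, 17.1% and 15.7%. Krt72-ps and Krt26 had their largest shares at P3, with 0.857%, 4.56% and 2.16% for Krt72-ps and 0.939%, 1.75% and 1.41% for Krt26. These shares use averaged values of a single age, and a common scaling of all values of that age leaves them as they are. Whether scaling single replicates before averaging would change them could not be tested.

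**Figure D3:**
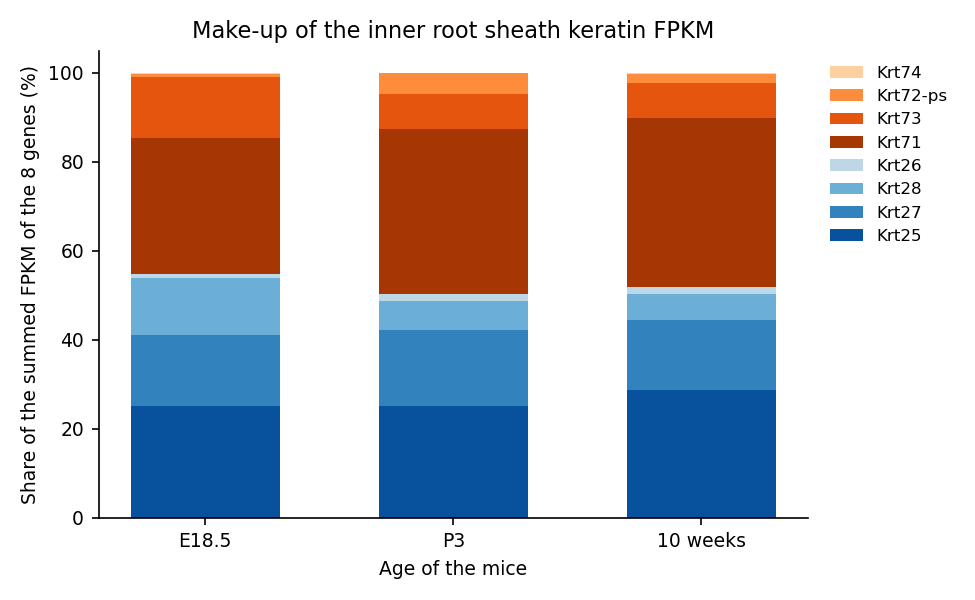
Share of each gene in the summed FPKM of the 8 inner root sheath keratins (%) at each age, with type I genes in blue and type II genes in orange. The blue and orange parts are of near equal height at all 3 ages, while the bands of Krt28 and Krt73 are broader at E18.5 (12.8% and 13.5%) than at P3 (6.51% and 7.89%).

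The genes next to the 2 groups in their clusters shared this course only in part. Krt84 (at most 1.68 FPKM), Krt85, Krt5 and Krt12 were called higher at P3 and lower at 10 weeks. Smarce1, Krt24, Krt20 and Krt77 were not, and of all genes 5.35% were. Krt1 and Krt10 lack a P3 value, and Krt222 and Krt2 were too low to be compared. On chromosome 11, the nearest gene before Krt25 is Krt24, which stood at 0.118, 0.793 and 4.34 FPKM, highest in the adult. Next after Krt28 is Krt10, the type I keratin of suprabasal epidermis, with 4499 FPKM in the embryo, 1430 in the adult and a failed estimate at P3. Krt12, beyond it, stood at 5.89, 25.1 and 0.110 FPKM and was higher at P3 (1.92) and lower in the adult (-4.55). On chromosome 15, Krt5 lies before Krt71, and stood at 1058, 2638 and 816 FPKM, differences of 1.32 and -1.69. Krt2, after Krt73, was under 1 FPKM at all ages, and Krt77 was higher at each later age. Krt85, a hair shaft keratin, went from 12.6 to 148 and 7.38 FPKM. Krt84 and Krt85 are listed with the same span (101346119 to 101524736), so their order is not resolved. Their place among the 3 nearest genes before Krt71 is therefore uncertain.

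**Figure D4:**
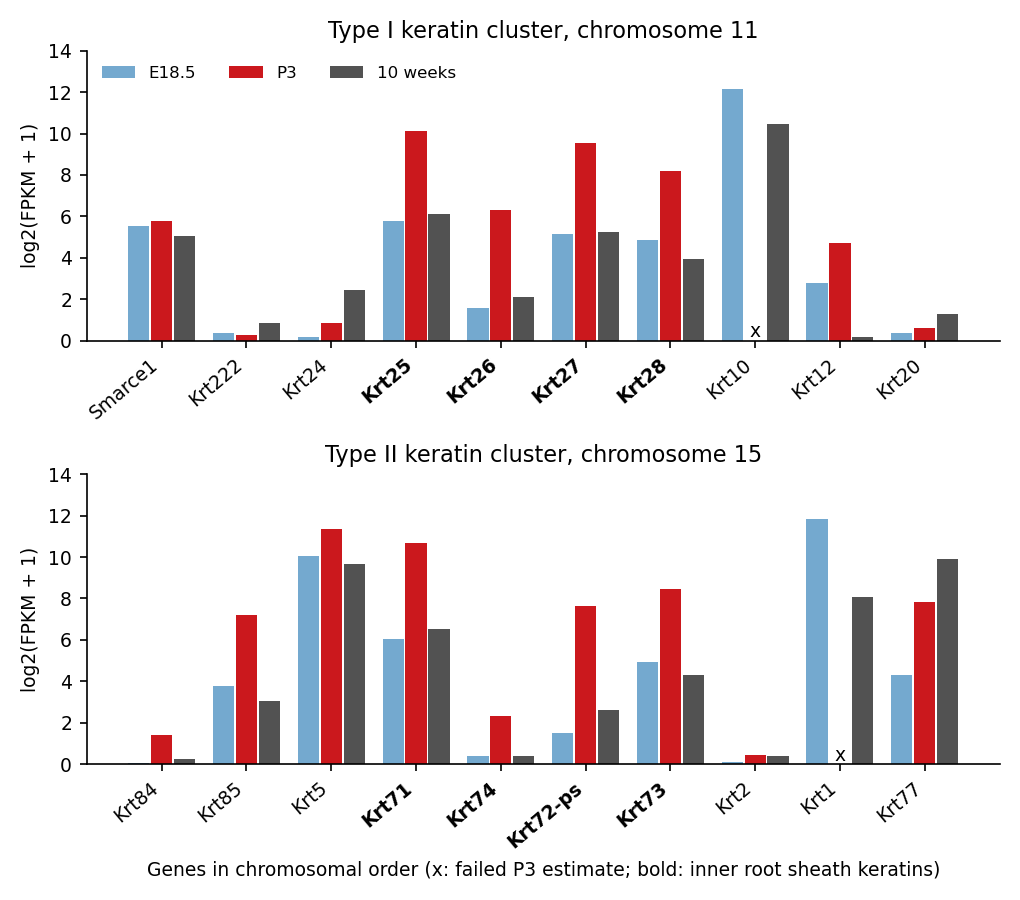
log2(FPKM + 1) at E18.5, P3 and 10 weeks of the inner root sheath keratins (bold) and the 3 genes on each side, ordered by listed start. A cross marks a failed P3 estimate. Krt84 and Krt85 have the same listed span, so their order and place are not resolved. The P3 bar is the tallest of each bold gene, whereas Krt24 and Krt77 are tallest at 10 weeks.

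The keratins of the hair shaft, which fill the fibre inside the sheath, had the most similar course of the keratin lists. Of 16 genes, 15 were found, and 15 of 15 were called higher from embryo to pup and 15 of 15 lower from pup to adult. Their medians of 4.34 and -4.16 were close to the 4.37 and -4.16 of the inner root sheath keratins. These are in log2(FPKM + 1), where the added 1 shrinks the differences of low genes, as most shaft keratins were at E18.5. In summed FPKM the shaft keratins were at 25.4 times their E18.5 level at P3, and the sheath keratins at 20.5 times. Krt33b, a type I chain of the shaft, stood at 0.282, 67.8 and 2.22 FPKM, and Krt83, one of type II, at 1.84, 84.1 and 1.95. Before birth the median inner root sheath keratin stood at 28.3 FPKM and the median hair shaft keratin at 0.874 FPKM. Only Krt35 (16.6 FPKM) and Krt85 (12.6 FPKM) of the shaft keratins passed 10 FPKM at E18.5, where 5 of the 8 sheath genes did. Summed FPKM of the sheath genes was 5.27 times that of the shaft genes at E18.5, 4.26 times at P3 and 5.42 times at 10 weeks. With 1 value per age the difference between the lists could not be tested.

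Keratin-associated proteins, which embed the shaft keratins, summed to 20.8, 4539 and 115 FPKM over 51 genes, 218 times as much at P3 as at E18.5, where the sheath keratins were at 20.5 times. Keratins of the companion layer and outer root sheath were called higher at P3 in 5 of 5 cases and lower at 10 weeks in 5 of 5, with medians of 3.69 and -2.56. Krt75 of the companion layer, the cell layer next to the inner root sheath, stood at 5.92, 119 and 19.3 FPKM. Krt17 of the outer root sheath was at 310, 956 and 399.9 FPKM. Of the 7 epidermal keratins, 4 could be compared up to P3 and 3 of them were higher, and from P3 to 10 weeks 1 was higher and 2 lower. Krt6a and Krt6b share 62.0% and 50.1% of their 50-base stretches with other genes and are uncertain one by one, whereas the inner root sheath keratins shared between 0% (Krt26) and 11.1% (Krt27).

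Other proteins of the inner root sheath followed to a lesser extent. Of 9 genes, 8 could be compared from E18.5 to P3, and 8 were higher and 0 lower, with a median of 2.43. From P3 to 10 weeks 7 of 8 were lower and 0 higher (median -2.97). Trichohyalin (Tchh), the main matrix protein of the sheath, had 15.98 FPKM in the embryo and 26.1 in the adult, and its P3 estimate failed for excess data, so the age of most interest is lacking. Padi3, a peptidylarginine deiminase that modifies trichohyalin, was at 3.11, 69.3 and 2.94 FPKM, differences of 4.10 and -4.16, near the medians of the keratins. Its relative Padi1 was at 0.980, 13.8 and 0.542 FPKM.

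The cross-linking enzyme Tgm3 stood at 12.9, 46.4 and 0.508 FPKM, and it was called lower in the adult than in the embryo (-3.20). Tgm1, a transglutaminase also of the epidermis, stood at 18.1, 89.7 and 13.1 FPKM. Cst6, a cathepsin inhibitor of follicle and epidermis, was the exception after P3, with 10.1, 112 and 158 FPKM (0.49 from P3 to 10 weeks). Several of these genes are active in interfollicular epidermis too, among them Cdsn, Casp14 and Tgm1, and their values do not measure the sheath alone.

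Among regulators of follicle differentiation, 11 of 17 were higher at P3 and 0 lower (median 1.28), and 13 of 17 were lower at 10 weeks and 0 higher (median -1.66). Gata3, a transcription factor needed to form the inner root sheath, stood at 14.6, 39.3 and 32.0 FPKM. It was higher at P3 (1.37), but from P3 to 10 weeks its difference of -0.29 did not reach 2-fold. Cux1, another factor of the sheath, was at 20.5, 48.2 and 19.1 FPKM and was called in both comparisons (1.20 and -1.29). Dlx3 (15.9, 75.1 and 8.03 FPKM), Msx2 (6.06, 29.9 and 3.34), Hoxc13 (6.31, 27.6 and 3.50) and Foxn1 (1.80, 11.4 and 2.05), homeodomain and forkhead factors of the hair matrix, all had differences near or above 2 at P3. Shh, a signal of the matrix, was different, with 11.2, 8.78 and 0.982 FPKM, and so was Lef1 (9.27, 17.1 and 1.66 FPKM), a mediator of Wnt signals. Both were called only in comparisons with the adult, from P3 by -2.30 for Shh and -2.76 for Lef1. No single regulator had a difference as large as the median of the sheath keratins, the largest at P3 being Sp6 (2.40).

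The lipase and receptor route that is faulty in other forms of human woolly hair was mixed. It runs from the lipase Liph, which makes lysophosphatidic acid, over its receptor Lpar6 and the sheddase Adam17 to Tgfa and Egfr. Of the 5 genes 3 were higher at P3 and 0 lower, and from P3 to 10 weeks 0 were higher and 1 lower. Tgfa stood at 2.28, 16.7 and 5.33 FPKM and Liph at 5.49, 15.4 and 8.31. Lpar6, at 14.7, 10.8 and 13.9 FPKM, had differences of -0.41 and 0.34.

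Marker lists of other cells moved between the same ages. The 6 skeletal muscle markers summed to 4397, 370 and 18921 FPKM, 5 adipocyte markers to 4101, 1453 and 5768, and 5 fibroblast markers to 3142, 1144 and 3590. None of these markers was at 0. Lower at P3 than at E18.5 were 6 of 6 muscle, 4 of 5 adipocyte and 5 of 5 fibroblast markers. Keratinocyte markers were higher at P3 in 4 of 4 cases (median 1.49). Summed over 4 markers each, endothelium stood at 122, 40.6 and 104 FPKM, macrophages at 94.8, 40.02 and 379, and pigment cells at 96.3, 239 and 21.3. Cycling cell markers were not called between E18.5 and P3 (0 of 4) and were lower at 10 weeks in 4 of 4. The part of this tissue make-up in the keratin values was not tested.

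The inner root sheath keratins were also set against Krt5 and Krt14, which mark basal keratinocytes. What part the amount of keratinocytes has in the values was not tested. Krt5 and Krt14 together stood at 2009, 5077 and 1462 FPKM, and the 8 genes at 10.7%, 86.8% and 16.3% of that. With the ages scaled on these 2 genes, an alternative chosen after the values were seen, 8 of 8 members were higher at P3, with a median of 3.04, and 7 of 8 lower at 10 weeks (median -2.42). Krt74 fell just short in the second comparison (-0.99). This scaling moves most genes: of all genes, 1.90% were then called higher and 50.5% lower up to P3 (median -1.01), and 79.1% higher and 2.26% lower after it (median 1.64).

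**Figure D5:**
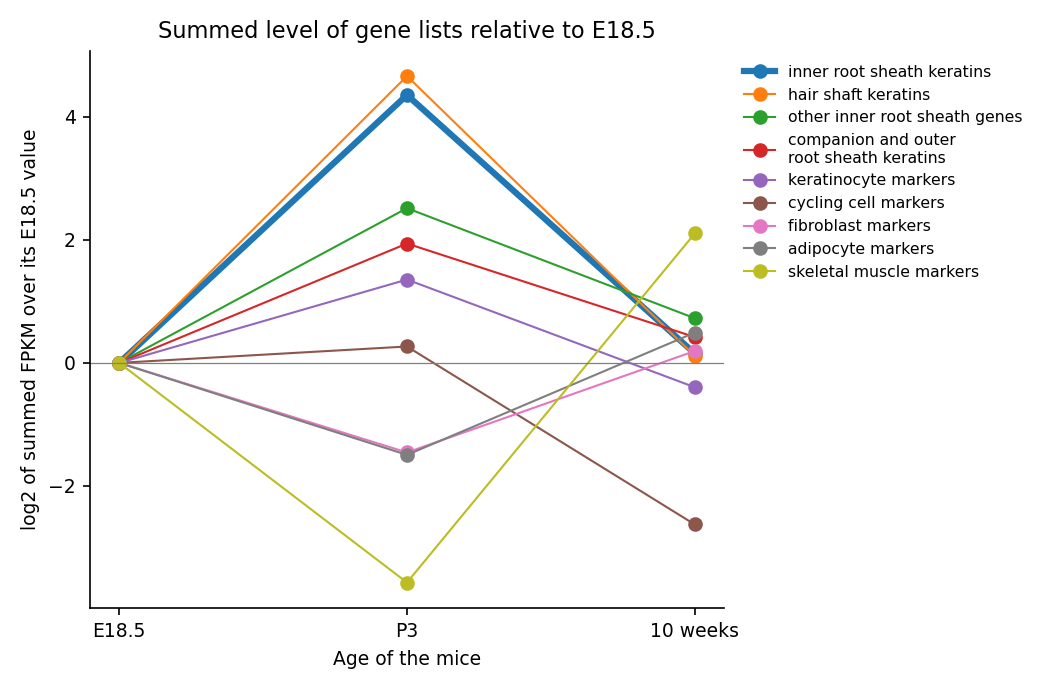
log2 of the summed FPKM of gene lists relative to E18.5, over genes with a value at every age, for the inner root sheath keratins and 8 other lists (keratin-associated proteins and endothelium, macrophage and pigment cell markers are not drawn). The sheath keratins (thick line; sums of 215, 4406 and 239 FPKM) and hair shaft keratins lie highest of the 9 drawn lists at P3, and the muscle, adipocyte and fibroblast markers lowest.

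Genes of most similar pattern were sought by the distance of their 2 differences from the medians of the 8 members, over 3 ages and among 9022 other genes with at least 10 FPKM at some age. With so few ages many genes lie close. The nearest 8 included Npy, the gene of neuropeptide Y (1.11, 45.4 and 1.86 FPKM, distance 0.161), and Crnn, the cornified-envelope protein cornulin (4.03, 120 and 6.04 FPKM, distance 0.219). Gm3238 (0.137, 20.2 and 0.306 FPKM) and the keratin-associated Krtap4-6 (0.0889, 18.5 and 0.105 FPKM) were also among them. The other 4 were the microRNA rows Mir3077, Mir877, Mirlet7i and Mirlet7f-1, each listed at 0 at E18.5 and 10 weeks, short transcripts for which FPKM is uncertain. All 8 passed the minimum of 10 FPKM only through P3. For the microRNA rows, Gm3238 and Krtap4-6, near 0 at the other ages, the added 1 largely sets both differences. Their nearness therefore does not mean ratios of FPKM like those of the members. Of the members themselves Krt27 lay nearest to the medians (0.148) and Krt74 farthest (3.27), followed by Krt72-ps (1.98).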

How the data were processed

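The series lists 3 samples of whole FVB mouse skin RNA, 1 per age, while its design states 2 biological replicates per age. Per the labels' protocols, libraries were made from 1 ug of total RNA with the Illumina TruSeq kit. The deposited values are FPKM, headed as averages per the file headers. TopHat2 2.0.7, Cufflinks 2.1.1 and build mm9 are named, per the submitters' processing notes. Annotation, strand setting, averaging and treatment of shared reads: not given in the sources used here.

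Values of 0 marked FAIL or HIDATA were treated as missing. Differences are of log2(FPKM + 1), later minus earlier age, called at 1, with Python 3.11.15 and pandas 2.3.3. The arithmetic of the calling was checked on noise-free copies of E18.5 values with set changes. That check says nothing about spread between animals or about low genes. No test was run, since each age has 1 value. Table starts count from 0, judged from 4 members whose end minus start equals the RefSeq length, and 1 was added. Promoters and gene types are from RefSeq (GRCm38.p6), transcripts from GENCODE M21, and neither was joined to mm9 coordinates. Krt72-ps was matched to Krt72 as a RefSeq synonym.

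All 8 members were named. Other genes came from lists of sheath genes, regulators, keratins and cell markers, from the 3 neighbours on each side and from the 8 nearest patterns. Krt17 and Krt35 were named after their values were seen. Members and lists were chosen with earlier results of these data known.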

Additional observations from a re-analysis of the deposited data

How the results depend on the processing

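The alternatives were pseudocounts of 0.1 and 5, no minimum or a minimum of 5 FPKM, median-of-ratios and upper-quartile scaling, leaving out Krt72-ps, and, chosen after seeing the data, scaling on Krt5 and Krt14. Under all of them 7 or 8 members were called higher from E18.5 to P3 and 7 or 8 lower from P3 to 10 weeks. Of all genes, 1.90% to 12.2% were higher in the first comparison and 2.26% to 13.1% lower in the second. Their medians ranged from 3.04 to 4.43 and from -4.38 to -2.42. A minimum of 5 FPKM leaves out Krt74.

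Between E18.5 and 10 weeks the calls depended on the setting. With a pseudocount of 5, or without Krt72-ps, 0 members were called. Of all genes, 8.69% were higher and 3.83% lower with that pseudocount. The shares without Krt72-ps were 16.1% and 6.92%. Under median-of-ratios and under upper-quartile scaling 1 member was called, but it was Krt28 as lower (-1.15 and -1.18) instead of Krt72-ps as higher. Among all genes 12.4% were higher and 8.88% lower under median-of-ratios, and 12.2% and 9.27% under upper-quartile scaling. The median moved from 0.23 to -0.0035 under median-of-ratios, to -0.024 under upper-quartile scaling and to 0.69 with scaling on Krt5 and Krt14. Krt27 went from 0.13 to -0.13 and -0.16, and Krt74 from -0.02 to 0.12 with scaling on Krt5 and Krt14. Median-of-ratios scaling moved the median of all genes between these ages from 0.22 to -0.02, upper-quartile scaling to -0.04 and scaling on Krt5 and Krt14 to 0.65. Of all genes called between E18.5 and P3, the part that was higher moved from 50.4% to 37.4% under upper-quartile scaling, and of those called between P3 and 10 weeks from 66.6% to 55.7% under median-of-ratios scaling. With scaling on Krt5 and Krt14 these parts were 3.62% and 97.2%. No paired analysis was possible because each age has 1 column and no replicate numbers. Depth is unknown, so a limit for low values such as Krt74 cannot be given.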
